A study of Mus musculus with 12 samples.

Results

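The imprinted growth genes examined here are 10 mouse genes that are expressed mainly from the copy inherited from one parent and that act on growth before and after birth. They were found in the deposited counts by the Ensembl identifiers that carry the symbols H19, Igf2, Igf2r, Dlk1, Meg3, Peg3, Plagl1, Cdkn1c, Grb10 and Mest in GENCODE M21, which gave 10 of the 52636 genes counted. RNA was sequenced from lymphatic endothelial cells (LECs), the cells that line lymphatic vessels, sorted out of lung tissue of Prox1-EGFP mice, in which regulatory sequence of the lymphatic transcription factor gene Prox1 drives a green fluorescent protein. The 12 libraries were 2 of acute room air (RA), 2 of acute cigarette smoke (CS), 3 of chronic RA and 5 of chronic CS. Acute exposure lasted 8 weeks and chronic exposure at least 24 weeks, beginning at 6 weeks of age, and all mice carried the reporter. Both sexes were used, and each library is named by the sex, and where given the number, of its label. The labels give 8 weeks as the age of the acute mice, whereas the study's methods give 8 weeks as the length of exposure. Cells of 2 to 5 mice were pooled for the acute CS libraries by the methods, chronic ones were not pooled, and whether the acute RA libraries were pooled alike is less plainly stated. In the comparison of the RA time points, age, time in the facility and any pooling therefore cannot be told apart.

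Genomic imprinting marks certain genes with DNA methylation in the egg or the sperm, so that later one parental copy is silent. Several paternally expressed genes, such as that of the growth factor IGF2, promote growth, whereas several maternally expressed ones, such as those of the IGF2-clearing receptor, the cell cycle inhibitor p57 and the adaptor GRB10, restrain it. A network of these genes is high in the fetus and falls as organs mature, and in adult tissue some stay on in endothelium and in stem or stromal cells. The counts sum both parental copies, so the data do not show which copy was used.

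H19, Mest, Igf2 and Meg3 each hold a microRNA gene, and microRNAs are short RNAs that pair with messenger RNAs through a seed of 7 bases. Those of H19 and Mest, the hosts of the best known ones, are shown so that the host RNA measured here is not taken for the microRNA, which was not. The mature sequences are from RefSeq (GRCm38.p6), with the seed, bases 2 to 8, in capitals.
mmu-miR-675-5p in H19: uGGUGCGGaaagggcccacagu
mmu-miR-675-3p in H19: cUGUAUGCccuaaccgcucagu
mmu-miR-335-5p in Mest: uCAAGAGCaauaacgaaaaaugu
mmu-miR-335-3p in Mest: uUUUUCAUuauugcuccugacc
The 4 seeds are different from each other. The miR-675 arms lie on the minus strand of chromosome 7 (5p at chr7:142577112-142577133, 3p at chr7:142577078-142577099) and the miR-335 arms on the plus strand of chromosome 6 (5p at chr6:30741314-30741336, 3p at chr6:30741354-30741375), each inside its host gene. The Mir675, Mir483 and Mir770 rows were at 0 counts in all 12 libraries and the Mir335 row held 2 counts, both in acute RA M. The libraries were made from polyadenylated RNA, which does not hold mature microRNAs, so these rows give no level of them.

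Promoter windows in RefSeq, 250 bases before to 50 after a start, were found for 8 of the 10 members, 15 windows in all. Those of Grb10, the steadiest member, of Plagl1, the most variable, and of Igf2r, the member with the smallest unadjusted p in the edgeR fit of acute CS, are shown with each CpG, the dinucleotide that carries DNA methylation, in capitals. Each is written 5′ to 3′ on the strand of its gene (GRCm38.p6), and for Grb10 the window richer in CpGs of its 2 windows was taken.
Grb10, chr11:12037371-12037670, minus strand: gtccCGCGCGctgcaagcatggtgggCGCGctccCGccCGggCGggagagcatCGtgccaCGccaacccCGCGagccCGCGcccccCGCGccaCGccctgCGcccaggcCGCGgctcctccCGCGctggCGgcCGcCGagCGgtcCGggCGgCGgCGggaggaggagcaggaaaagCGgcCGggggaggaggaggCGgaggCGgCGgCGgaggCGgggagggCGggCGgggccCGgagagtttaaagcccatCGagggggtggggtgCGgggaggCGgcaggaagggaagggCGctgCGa
Plagl1, chr10:13090582-13090881, plus strand: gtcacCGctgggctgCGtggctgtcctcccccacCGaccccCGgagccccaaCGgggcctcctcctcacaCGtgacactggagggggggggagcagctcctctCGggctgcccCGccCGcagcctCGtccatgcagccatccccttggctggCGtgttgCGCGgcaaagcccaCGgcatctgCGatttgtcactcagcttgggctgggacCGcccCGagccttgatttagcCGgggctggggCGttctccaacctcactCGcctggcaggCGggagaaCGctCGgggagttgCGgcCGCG
Igf2r, chr17:12769657-12769956, minus strand: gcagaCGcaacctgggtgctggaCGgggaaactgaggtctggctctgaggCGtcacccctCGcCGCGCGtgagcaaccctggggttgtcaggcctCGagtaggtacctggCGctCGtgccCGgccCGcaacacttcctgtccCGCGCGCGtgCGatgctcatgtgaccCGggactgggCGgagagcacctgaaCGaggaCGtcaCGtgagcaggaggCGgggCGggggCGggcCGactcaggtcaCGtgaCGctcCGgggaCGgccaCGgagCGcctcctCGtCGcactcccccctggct
The windows held 45, 26 and 34 CpGs, against a median of 7 over the 32851 windows of the table, and 98.1%, 83.1% and 92.3% of those windows held fewer. The other Grb10 window, chr11:12027922-12028221, held 9 CpGs, with 54.2% of windows holding fewer, and no match to the hexamer searched next. The hexamer TGCCGC, the motif of the imprint-keeping zinc finger protein ZFP57, was searched on both strands. It occurred once in each of the printed Grb10 and Plagl1 windows and not in that of Igf2r. Among the other member windows it had 2 matches in each of the overlapping Mest windows chr6:30737800-30738099 and chr6:30737803-30738102. It had 1 in the Igf2 window chr7:142661222-142661521 and 1 in the Meg3 window chr12:109540746-109541045, and the rest had none. At least 1 match was found in 11.6% of all windows. Of the 15 member windows, the palindrome GGGGCCCC bound by PLAGL1 itself was found in that of Peg3, and in 1.08% of all windows. These motifs do not overlap each other in letters, and a match is a description of the sequence. Methylation was not measured.

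Total counts per library ran from 18821438 to 56998590, and expression is given in CPM, a gene's counts scaled to the same library total with edgeR's TMM factors. Summed over 7 lymphatic marker genes, the libraries lay at 13513 and 15243 CPM in acute RA, 5904 and 9073 in acute CS, 18528 to 21257 in chronic RA and 13569 to 19947 in chronic CS, so the acute CS libraries were the lowest, and none of the 7 genes was at 0 in any group. Markers of other cells were present too. The sum over 8 leukocyte markers was 124 and 127 CPM in acute RA and 1614 and 2208 in acute CS, and 8 of 8 of these genes rose after acute CS. The sum over 11 mesenchymal markers was 187 and 247 CPM in acute RA and 729 and 1096 in acute CS, with 6 of 11 called higher. The sum over 8 blood endothelial markers was 2772 and 3610 CPM in acute RA and 6367 in both acute CS libraries, with 5 of 8 called higher, and that over 7 alveolar macrophage markers was 52.6 and 105 CPM in acute RA and 1779 and 1816 in acute CS, with 2 of 7 called higher. For mesenchyme the sum was 135 to 169 CPM in chronic RA and 250 to 449 in chronic CS, with 0 of 11 called by edgeR and 8 of 11 at an unadjusted p under 0.05. The sum over 9 alveolar epithelial markers was 258 CPM in acute CS M and 6442 in acute CS F, which stood apart, against 249 to 1063 in RA and 914 to 4570 in chronic CS. None of the marker genes of these lists was at 0 throughout a group. In bulk RNA, fewer cells of a type and less RNA per cell cannot be told apart.

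**Figure D1:**
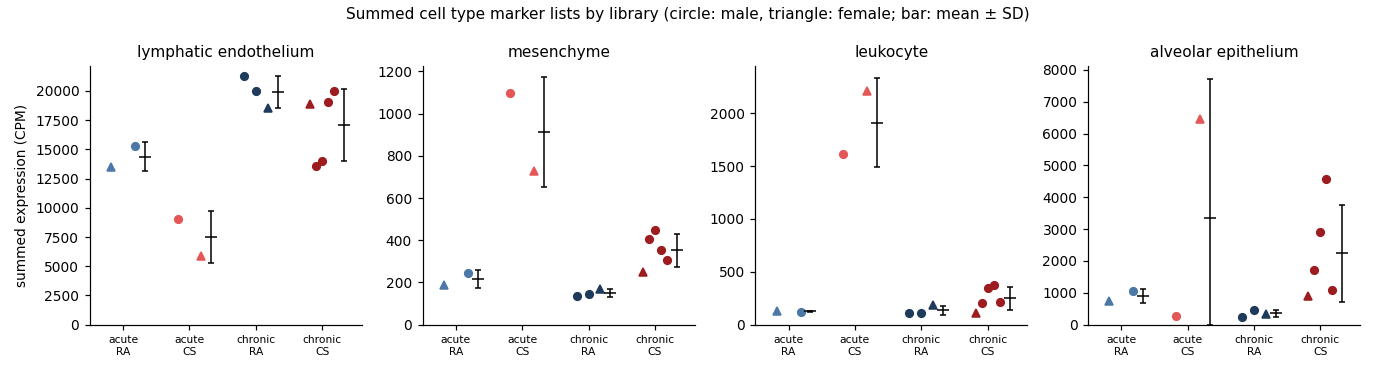
Summed expression in CPM (y axis) of the marker lists of lymphatic endothelium, mesenchyme, leukocytes and alveolar epithelium in each library, by group (x axis). Circles are male and triangles female libraries, and the black bars give mean ± SD, with the lower end stopped at 0. The acute CS libraries are lowest for the lymphatic list (5904 and 9073 CPM) and highest for leukocytes (1614 and 2208 CPM) and mesenchyme (729 and 1096 CPM).

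The members spanned a wide range of levels. In FPKM, which is CPM divided by the kilobases of exon, the order in acute RA was Grb10 at 10.2 ± 0.354 (SD, n = 2), Cdkn1c at 7.9 ± 1.82, Igf2 at 5.36 ± 0.201, Mest at 4.99 ± 0.0269, Igf2r at 2.35 ± 0.0663, H19 at 2.15 ± 0.0744, Peg3 at 0.977 ± 0.0136, Plagl1 at 0.394 ± 0.17 and Meg3 at 0.0218 ± 0.0136, with Dlk1 not detected. No neighbours in that order overlapped in their 2 libraries. In chronic RA (n = 3) Grb10 stood first at 11.7 ± 0.735 FPKM, Cdkn1c second at 8.98 ± 1.09 and then Igf2 at 6.22 ± 1.6, without overlap, whereas Mest, H19 and Igf2r at 5.51 ± 0.338, 4.66 ± 1.17 and 3.97 ± 1.41 each overlapped the gene above. In chronic CS every gene from Cdkn1c down to Meg3 overlapped the gene above it. Grb10 was first and Cdkn1c second by mean FPKM in all 4 groups. For scale, Prox1 itself was at 281 ± 20 FPKM in acute RA.

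**Figure D2:**
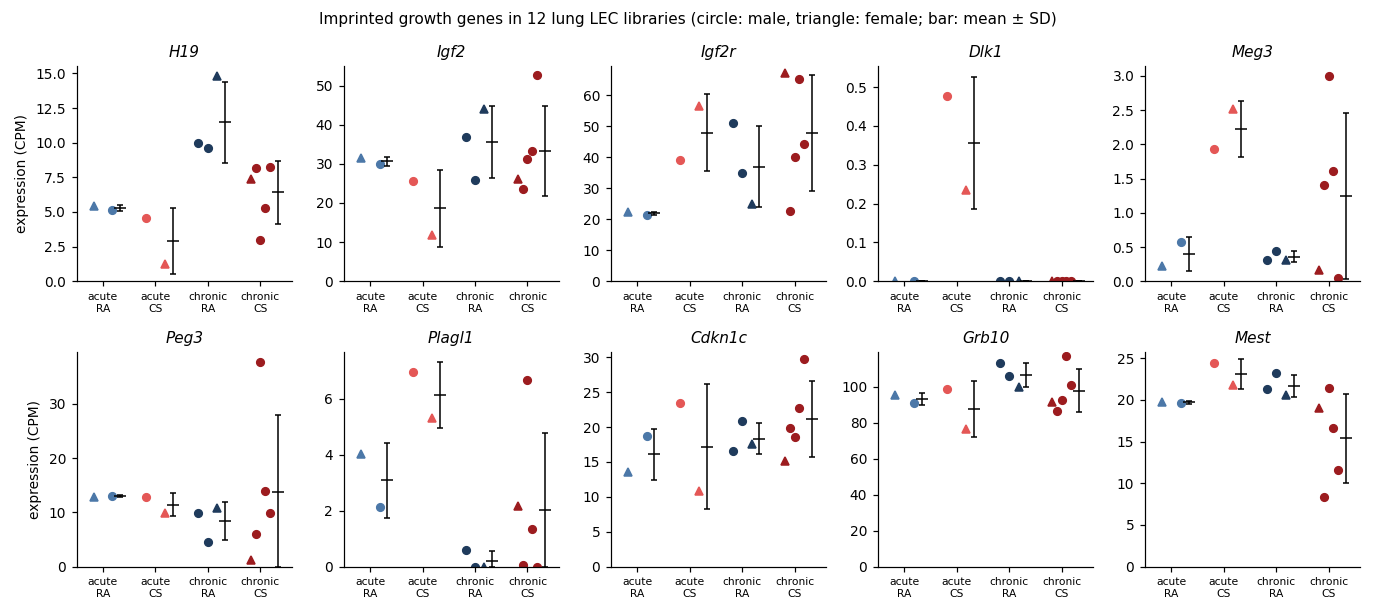
Expression in CPM (y axis, from 0, a scale for each gene) of the 10 members in every library by group (x axis). Circles are male and triangles female libraries, and black bars give mean ± SD with the lower end stopped at 0. H19 is highest in chronic RA (9.6 to 14.8 CPM), Grb10 stays between 76.4 and 117 CPM, and Dlk1 is above 0 in the 2 acute CS libraries only.

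The comparison of the RA time points asked whether lung LECs of unexposed mice differ in these genes between the acute and the chronic age. Of the 9 members that passed the filter on low counts, edgeR's quasi-likelihood test called 0, with 0 at an unadjusted p under 0.05, and DESeq2 called 0, against 1.18% of all genes. Over all 21440 genes tested edgeR called 0%, and 7.01% had an unadjusted p under 0.05. Fitted with only the libraries of these groups, edgeR called 0 members and 42 of 18368 genes, but 3 of the 9 members had an unadjusted p under 0.05, against 17.6% of all genes, with edgeR's unadjusted p at 0.00589 for H19, 0.0396 for Igf2r and 0.0423 for Plagl1. The median log2 fold change was 0.19 for the members and 0 for all genes. The libraries of the groups did not overlap for 6 of the 9 members, and for 34.7% of all genes tested.

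H19, a long non-coding RNA expressed from the maternal copy (ENSMUSG00000000031, chr7:142575529-142578143, minus strand), was at 5.42 CPM in acute RA F and 5.16 in acute RA M, and at 14.8, 9.99 and 9.6 CPM in chronic RA F, M1 and M2. All 3 chronic libraries lay above both acute ones. Between the same groups the erythroid marker list was higher for 5 of 5 genes tested (summed 37.7 and 69.9 CPM in acute RA, 196 to 432 in chronic RA) and the lymphatic list for 6 of 7, with 3 at an unadjusted p under 0.05 and a median log2 fold change of 0.51, and their part in the H19 values was not tested. The acute mean was 5.29 ± 0.183 CPM (SD, n = 2) beside a chronic mean of 11.5 ± 2.89 CPM (SD, n = 3). The log2 fold change was 1.11 (SE 0.57, 95% interval -0.14 to 2.37), which did not pass (edgeR's adjusted p = 0.739). An exact two-sided permutation test of 3 against 2 libraries cannot go below 0.2, which H19 reached. Igf2, which encodes the fetal growth factor and lies beside H19 (ENSMUSG00000048583, chr7:142650766-142666816, minus strand), was at 31.5 and 29.9 CPM in acute RA F and M and at 44, 36.8 and 25.9 in chronic RA F, M1 and M2. Its groups overlapped, with a log2 fold change of 0.21 (SE 0.39). H19 and Igf2 share enhancers on the chromosome and are used from opposite parental copies, so their ratio within a library was computed, a choice made after the values were seen. The FPKM ratio of H19 to Igf2 was 0.401 and 0.402 in the acute RA libraries and 0.781, 0.631 and 0.862 in chronic RA F, M1 and M2, without overlap. As the mean difference of log2 ratios this was 0.90. An exact two-sided permutation test gave 0.2, the smallest p it allows, with an adjusted p of 0.6 over 6 such tests of ratios.

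**Figure D3:**
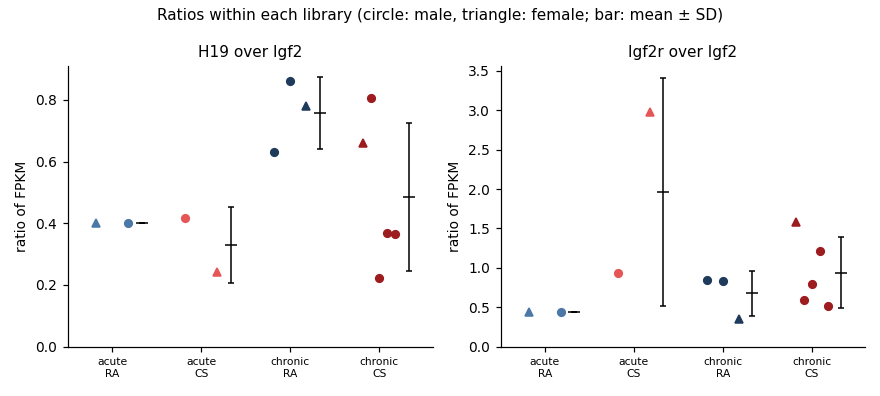
Ratio of FPKM (y axis) of H19 to Igf2 and of Igf2r to Igf2 within each library, by group (x axis). Circles are male and triangles female libraries, and bars give mean ± SD. The H19 ratio is 0.401 and 0.402 in acute RA and 0.631 to 0.862 in chronic RA, and the Igf2r ratio reaches 2.98 in acute CS F.

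Igf2r encodes the receptor that takes up IGF2 for breakdown in lysosomes and carries lysosomal enzymes (ENSMUSG00000023830, chr17:12682406-12769664, minus strand). It was at 22.3 and 21.4 CPM in acute RA F and M and at 25, 50.9 and 35 in chronic RA F, M1 and M2. The chronic libraries were all higher, with female library F nearest to the acute ones, and the log2 fold change of 0.76 (SE 0.43) did not pass (edgeR's adjusted p = 0.744). Plagl1, the gene of a zinc finger transcription factor of the imprinted network (ENSMUSG00000019817, chr10:13060504-13131694, plus strand), went the other way. It held 238 and 113 counts in acute RA F and M, 21 in chronic RA M1 and 0 in chronic RA F and M2, where 3 counts would correspond to 0.094 and 0.0894 CPM. The means were 3.08 ± 1.33 CPM (SD, n = 2) and 0.202 ± 0.349 CPM (SD, n = 3), with a fitted log2 fold change of -3.90 (SE 2.06, edgeR's adjusted p = 0.739). The counts of chronic RA M1 set this value. Without that library the group held 0 counts and the fit gave -9.93 (edgeR's unadjusted p = 0.0166, adjusted p = 0.918), which is not fixed by counts and is no bound. Its chronic libraries lay below both acute ones, and the interval from -8.43 to 0.63 was the widest of the members. The mesenchymal marker list moved in the same direction between these groups, with 7 of 11 genes lower, 6 at an unadjusted p under 0.05 and a median log2 fold change of -1.26. So did the alveolar epithelial list, with 9 of 9 genes lower, 0 at an unadjusted p under 0.05 and a median of -1.29. The part of either list in the Plagl1 values was not tested.

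Peg3, which encodes a zinc finger protein tied to maternal behaviour and growth (ENSMUSG00000002265, chr7:6703892-6730431, minus strand), was at 12.9 and 13.1 CPM in acute RA F and M and at 10.9, 9.96 and 4.47 in chronic RA F, M1 and M2. No library overlapped, and the log2 fold change was -0.63 (SE 0.93). The adaptor gene Grb10, whose product binds insulin and IGF1 receptors and damps their signal (ENSMUSG00000020176, chr11:11930508-12038683, minus strand), was at 95.4 and 90.8 CPM in acute RA F and M and at 99.8, 113 and 106 in chronic RA F, M1 and M2. These did not overlap, and the log2 fold change was 0.19, with a 95% interval from -0.15 to 0.53. Mest, the gene of a hydrolase-like membrane protein (ENSMUSG00000051855, chr6:30723547-30748465, plus strand), was at 19.8 and 19.6 CPM against 20.6, 21.3 and 23.2, also without overlap, a log2 fold change of 0.14 (SE 0.34). Cdkn1c, which encodes p57 (ENSMUSG00000037664, chr7:143458339-143461050, minus strand), gave 0.19 (SE 0.35), and Meg3, a non-coding RNA of the Dlk1 domain (ENSMUSG00000021268, chr12:109541001-109571726, plus strand), gave -0.13 (SE 1.24). Both overlapped between the groups.

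The comparison of acute CS with acute RA asked how 8 weeks of smoke altered these genes. edgeR called 0 of the 9 members, against 3.47% of all genes, and DESeq2 called 0, against 9.15% of all genes. The share over all genes depended on the fit. edgeR called 745 genes with all libraries, 139 with only the groups compared, and 73 with a replicate block that joins libraries of the same label. At an unadjusted p under 0.05 there was 1 member, Igf2r, against 15.7% of all genes tested. With only the libraries of these groups in the fit there were 3 of 10, Igf2r, Meg3 and Dlk1, against 18.7% of all genes, and 0 called. Dlk1, at 0 counts in acute RA, passed the filter there only through its acute CS counts. Its p follows from that selection and is not read as a difference. The groups did not overlap for 6 of the 9 members tested, and for 49.9% of all genes tested. The median log2 fold change was 0.10 for the members and 0.0408 for all genes.

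Igf2r reached 56.6 CPM in the female and 39.1 CPM in the male acute CS library, both above the 22.3 and 21.4 CPM of acute RA. The log2 fold change was 1.13 (SE 0.46, 95% interval 0.12 to 2.15), with an unadjusted p of 0.032 and an adjusted p of 0.255 in the edgeR fit across all genes. The log2 fold change was 0.84 without acute CS F, 1.37 without acute CS M, 1.16 without acute RA F and 1.07 without acute RA M. With the replicate block it was 1.11 (edgeR's unadjusted p = 0.0947). The unadjusted p stayed under 0.05 with DESeq2, and in edgeR without TMM, without the filter and with sex in the model. Igf2 was at 11.7 CPM in the female and 25.6 CPM in the male smoke library, below the 31.5 and 29.9 CPM of acute RA, with a log2 fold change of -0.72 (SE 0.42, edgeR's adjusted p = 0.48). Without acute CS F it was -0.26 and without acute CS M -1.39. The FPKM ratio of receptor to ligand was 2.98 in the female and 0.939 in the male smoke library against 0.435 and 0.441 in acute RA. The 2 smoke libraries differed more from each other in this ratio than acute CS M did from acute RA.

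H19 was at 1.22 CPM in the female and 4.58 CPM in the male smoke library, both below acute RA, with a log2 fold change of -0.87 (SE 0.61, edgeR's adjusted p = 0.585). Without acute CS F it was -0.21 and without acute CS M -2.12, so the size rested on acute CS F, the library with the lowest lymphatic and highest epithelial sum. Meg3 held 128 and 89 counts in acute CS F and M against 13 and 30 in acute RA, or 2.51 and 1.93 CPM against 0.22 and 0.568. Both smoke libraries lay higher, with a log2 fold change of 2.49 (SE 1.41, edgeR's adjusted p = 0.458). It was 3.29 without acute RA M and 1.96 without acute RA F. Dlk1, which encodes a Notch-like transmembrane protein of fetal and stromal cells and lies beside Meg3 (ENSMUSG00000040856, chr12:109452823-109463336, plus strand), was too low for the test. It held 12 counts in the female and 22 in the male smoke library, 0.236 and 0.477 CPM, and 0 counts in each of the other 10 libraries. There, 3 counts would correspond to 0.0507 to 0.158 CPM, which covers counting error only. Plagl1 was at 5.3 and 6.96 CPM in acute CS F and M against 4.02 and 2.14 in acute RA, also without overlap, with a log2 fold change of 0.99 (SE 2.13). The mesenchymal, leukocyte, blood endothelial and macrophage sums given above were higher in the same 2 libraries, and their part in the values of Igf2r, Meg3, Dlk1 and Plagl1 was not tested. The lymphatic list moved in the direction of Igf2 and H19, with 6 of 7 genes lower, 2 of them called (Prox1, log2 fold change -1.03, edgeR's adjusted p = 0.00797, and the receptor gene Flt4, -1.10, edgeR's adjusted p = 0.0204), and its part in the Igf2 and H19 values was not tested.

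Grb10 was at 76.4 and 98.5 CPM in acute CS F and M, on both sides of acute RA, with a log2 fold change of -0.09 and a 95% interval from -0.46 to 0.28. Mest was at 21.8 and 24.4 CPM, above acute RA, with a log2 fold change of 0.23 (SE 0.37). Cdkn1c was at 10.9 in F and 23.5 CPM in M against 13.5 and 18.7, and Peg3 at 9.97 and 12.9 against 12.9 and 13.1 CPM. Their log2 fold changes were 0.10 (SE 0.38) and -0.19 (SE 1.03).

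The comparison of chronic CS with chronic RA asked the same for at least 24 weeks of smoke. edgeR called 0 of the 9 members, against 0% of all genes, with 0 members and 10.9% of all genes at an unadjusted p under 0.05. DESeq2 called 0 members, against 2.44% of all genes. With only these groups in the edgeR fit H19 alone had an unadjusted p under 0.05 (0.0452), against 10.5% of all genes, and 0 members were called. The groups did not overlap for 1 of the 9 members tested, H19, and for 9.41% of all genes tested. The median log2 fold change was 0.21 for the members and 0.0144 for all genes.

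H19 in chronic CS F, M1, M2, M3 and M4 was at 7.4, 8.14, 2.99, 5.28 and 8.25 CPM, and all 5 lay below the lowest chronic RA library at 9.6 CPM. The chronic CS mean was 6.41 ± 2.26 CPM (SD, n = 5) beside 11.5 ± 2.89 CPM (SD, n = 3) for chronic RA. The log2 fold change was -0.84 (SE 0.43, 95% interval -1.79 to 0.12, edgeR's adjusted p = 0.505). The exact two-sided permutation test gave 0.0357, unadjusted for the members compared and the smallest value that 5 against 3 libraries allow. The RA libraries used here are those of the time comparison above, so the 2 H19 differences are not independent. The ratio to Igf2, in the same order of libraries, was 0.661, 0.806, 0.223, 0.37 and 0.364, overlapping chronic RA. The mesenchymal and epithelial sums were higher in chronic CS. The erythroid list was lower for 5 of 5 genes tested (median log2 fold change -1.44, summed 9.69 to 349 CPM against 196 to 432). After acute CS, where H19 was also lower, the erythroid list was higher for 5 of 5 genes (median 2.61). In chronic CS blood endothelial markers were higher for 7 of 8 genes (median 0.75) and leukocyte markers for 8 of 8 (median 0.86), with 0 called. The part of these lists in the H19 values was not tested.

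The low members spread widely within chronic CS. Plagl1 was at 2.15, 0.044, 6.65 and 1.33 CPM in libraries F, M1, M2 and M3, held 0 counts in M4, and overlapped chronic RA (log2 fold change 3.30, SE 1.86, edgeR's adjusted p = 0.535). Without chronic RA M1, where the controls held 0 counts, the fit gave 9.32 (edgeR's unadjusted p = 0.0191, adjusted p = 0.658), again no bound. Without chronic CS M2 it was 2.08, and with chronic CS M3 and M4 only it was 1.69. Meg3 in libraries F and M1 to M4 was at 0.158, 1.41, 2.99, 1.61 and 0.0452 CPM, against 0.313 to 0.447 in chronic RA (log2 fold change 1.78, SE 1.07, edgeR's adjusted p = 0.558). Peg3, in that order, was at 1.16, 6.03, 37.7, 14 and 9.81 CPM (log2 fold change 0.71, SE 0.77, edgeR's adjusted p = 0.772). Library M2 was the highest for all 3 genes, and without it the log2 fold change was 1.16 for Meg3 and -0.11 for Peg3. The mesenchymal sum in F and M1 to M4 was 250, 404, 449, 352 and 305 CPM. In that order the alveolar epithelial sum was 914, 1704, 2906, 4570 and 1083 CPM and the leukocyte sum 114, 204, 346, 373 and 212. The alveolar macrophage sum was 60.5, 66.5, 266, 357 and 123 CPM. The part of these lists in the values of the 3 genes was not tested. Meg3 in F and M4 rested on 3 and 2 counts. Igf2 overlapped, with chronic CS from 23.5 to 52.7 CPM around a median of 31.2 (log2 fold change -0.09, SE 0.31). Igf2r ran from 22.5 to 67 CPM around 44.2 (log2 fold change 0.37, SE 0.34), and Mest from 8.36 to 21.4 around 16.6 (log2 fold change -0.50, SE 0.27, edgeR's adjusted p = 0.514). Cdkn1c lay between 15.2 and 29.7 CPM (log2 fold change 0.21, SE 0.28), and Grb10 between 86.5 and 117 (log2 fold change -0.12, 95% interval -0.39 to 0.15).

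**Figure D4:**
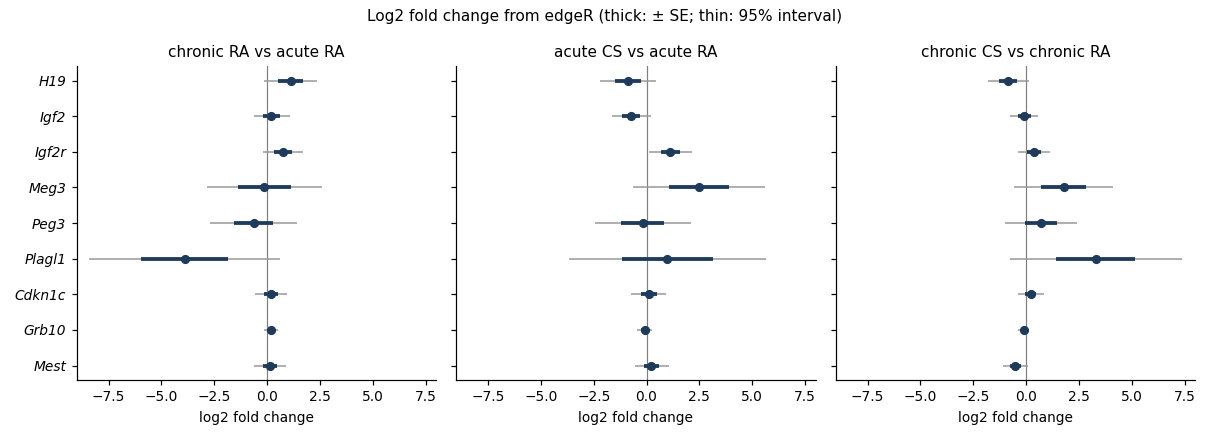
Log2 fold change (x axis) of the 9 members tested (y axis) for the comparison of RA time points, acute CS with acute RA, and chronic CS with chronic RA. Points are edgeR estimates, thick bars ± SE and thin bars 95% intervals. Igf2r after acute CS is the only interval that leaves out 0 (0.12 to 2.15), and Plagl1 has the widest ones.

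Whether the effect of smoke differed between the time points was tested as the acute minus the chronic effect. edgeR called 0 of 9 members, against 0.452% of all genes, and DESeq2 called 0, against 4.29%. At an unadjusted p under 0.05 in edgeR there were 0 members, against 11.9% of all genes. The adjusted p-values lay between 0.596 and 1.

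Across all 12 libraries Grb10 was the steadiest member, from 76.4 to 117 CPM, a range of 1.54-fold. Cdkn1c followed at 2.72-fold, Mest at 2.92-fold, Igf2r at 3.13-fold and Igf2 at 4.52-fold. H19 ranged 12.2-fold, Peg3 32.6-fold and Meg3 66.2-fold, and Plagl1 was at 0 in 3 libraries. As a description, the genes most like a member in log2 CPM were picked from the 21440 tested, over 12 libraries that differ in group and depth. Picking the highest of so many coefficients over so few libraries favours high values by itself. Those most like H19 included Sema6b (Pearson's r = 0.974) and Degs1 (0.954). Those most like Igf2r were Il6ra (0.915), Tmod2 (0.899) and Postn (0.897). For Meg3 they were Itgb5 (0.947), Gm2115 (0.928) and Spire1 (0.904), and for Grb10 Olfm1 (0.92), Gmds (0.916) and 1810030O07Rik (0.91). Among all pairs of members the coefficient was highest between H19 and Igf2, at 0.729, and lowest between H19 and Plagl1, at -0.737. Plagl1 held 0 counts in chronic RA F and M2, of the group highest in H19, so the lowest value also holds the group differences given above.

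Genes around the members were described from lists. Of 19 other genes of the IGF axis, 16 were tested, with 0 called between the RA time points, 1 after acute CS and 0 after chronic CS. The gene called was Igfbp7, which encodes a secreted binding protein of vessels, at 157 and 282 CPM in acute RA F and M and 717 and 487 in acute CS F and M (log2 fold change 1.46, SE 0.33, edgeR's adjusted p = 0.0363). In the same libraries 5 of 8 blood endothelial and 6 of 11 mesenchymal markers were called higher, and their part in the Igfbp7 values was not tested. The list's median log2 fold change was 0.14, 0.69 and 0.47 in the 3 comparisons, against 0, 0.0408 and 0.0144 over all genes. Irs2, an adaptor of the insulin and IGF1 receptors, had a log2 fold change of 2.06 after acute CS (SE 0.58, edgeR's adjusted p = 0.0891). Igfbp2, which encodes another IGF binding protein, had 4.61 after chronic CS (SE 1.11, edgeR's adjusted p = 0.256). The alveolar epithelial list was then higher for 9 of 9 genes, 8 at an unadjusted p under 0.05 and 0 called, with a median of 2.47, and its part in the Igfbp2 values was not tested.

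Of 23 neighbours of the members in the same imprinted domains, 13 were tested and 0 were called by edgeR in any of the 3 comparisons, with 1, 2 and 0 at an unadjusted p under 0.05. Slc22a3, an organic cation transporter gene in the Igf2r domain, was at 0.372 and 1.04 CPM in acute RA and 3.26, 3.97 and 8.64 in chronic RA F, M1 and M2, without overlap (log2 fold change 2.90, SE 0.69, edgeR's adjusted p = 0.401). Kcnq1, a potassium channel gene in the Cdkn1c domain, was at 2.4 and 3.1 CPM in acute RA and 47.9 and 29.1 in acute CS (log2 fold change 3.81, SE 1.48, edgeR's adjusted p = 0.226). In those acute CS libraries 8 of 8 leukocyte, 5 of 8 blood endothelial and 6 of 11 mesenchymal markers were called higher, and their part in the Kcnq1 values was not tested. Of 19 imprinted genes elsewhere in the genome, 16 were tested and 0 were called, with 1 at an unadjusted p under 0.05 in each comparison. The lowest p between the RA time points among them was that of Peg13, a non-coding RNA, with an acute RA mean of 118 ± 8.03 CPM (SD, n = 2) beside a chronic RA mean of 188 ± 11.3 CPM (SD, n = 3) (log2 fold change 0.67, SE 0.20, edgeR's adjusted p = 0.512). Between the RA groups 5 of 5 erythroid and 6 of 7 lymphatic markers were higher, and 7 of 11 mesenchymal and 9 of 9 alveolar epithelial ones lower. Their part in the Slc22a3 and Peg13 values was not tested. Of 7 family relatives of the members, such as Plagl2, Grb14 and Cdkn1a, 6 were tested. Of these 0 were called, with 0, 2 and 1 at an unadjusted p under 0.05. Beside each of these lists, edgeR called 0%, 3.47% and 0% of all genes in the 3 comparisons. Of all genes, 7.01%, 15.7% and 10.9% had an unadjusted p under 0.05.

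Some members share exon bases with other genes. The strand setting of the counting was not given, so how reads over bases shared by genes on opposite strands were counted is not known. Mest shares 23.1% of its exon bases with Copg2, on the opposite strand, which held 23998 counts in all libraries together against 8974 for Mest, and Cdkn1c shares 30.7% with the antisense gene Gm44732, which held 3 counts. Igf2 shares 62.8% of its exon bases with Gm49394, an annotation on the same strand that was not analysed here.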

How the data were processed

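RNA from sorted lung LECs was sequenced by the authors from SMART-Seq v4 libraries of polyadenylated RNA. Per the study's methods and the submitters' processing notes, reads were checked with FastQC 0.11.9, trimmed with Skewer, filtered with Minion and aligned to GRCm38 with STAR, whose GeneCounts mode gave the deposited counts per gene, without normalization. Which annotation release and which strand setting were used is not given in the sources used here.

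From these, the fits were made with edgeR 4.0.16 under R 4.3.3 (filterByExpr, TMM, quasi-likelihood F-test, all 12 libraries in one fit by group, 21440 genes, Benjamini-Hochberg limit 0.05). Symbols and exon lengths come from GENCODE M21, in which 147 identifiers were not found. FPKM used the union of exons, and log2 CPM a prior count of 2. Intervals are 95% and use the fit's degrees of freedom. The method was tested on simulated data. No pair of libraries in a group agreed within sampling noise. The labels do not say that every library is of separate mice, so p-values measure the spread between these libraries.

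All 10 members are named. From each list the genes past the limit and the 2 with the smallest p per comparison could be named, of which some are given, and the 3 genes most alike per member. A gene that the likeness rule names is not reported here. The members and lists were chosen with earlier results of these data known. Gm44732, Gm49394 and Copg2 were named after seeing the values. Alternatives were DESeq2 1.42.0, library size without TMM, no filter, fits of the 2 groups alone, sex in the model, a replicate block, leaving out each library, parts of chronic CS, and a prior count of 0.5. Tables were made with pandas 2.3.3 and figures with matplotlib 3.10.9 in Python 3.11.15.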

Additional observations from a re-analysis of the deposited data

How the results depend on the processing

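The count of members called was 0 in all 4 comparisons under every alternative run, DESeq2 and the omission of each library included. A prior count of 0.5 in place of 2 enters log2 CPM only, so it was no check of which groups overlap. Over all alternatives, a refitted log2 fold change had the other sign in 13 cases, several of them for the same gene and comparison. In none of these did the log2 fold change of the reported fit exceed its standard error. Under the replicate block, which joins libraries of the same sex and, in chronic males, number, the chronic effect was -0.38 for Peg3 and -0.04 for Cdkn1c, and no member was called. With chronic CS F, M1 and M2 only it was -0.02 for Cdkn1c, and with M3 and M4 only, the deeper libraries, 0.27 for Igf2 and 0.04 for Grb10. Leaving out each library gave ranges across 0 for Meg3 (-0.66 to 0.68) and Cdkn1c (-0.03 to 0.42) between the RA time points, Cdkn1c (-0.56 to 0.55) and Grb10 (-0.29 to 0.08) after acute CS, and Igf2 (-0.32 to 0.10) and Peg3 (-0.11 to 1.0) after chronic CS, the lowest Peg3 value being without chronic CS M2. The cause was not tested. Libraries with the same label deviated together with correlations of 0.0693 in the acute pairs, a size that 2 libraries a group fix for both pairs, and -0.0419, 0.0342 and 0.00601 in the chronic ones, so no pairing was taken from the labels. The acute calls over all genes went from 745 to 73 with the block and to 139 with only the groups compared. Leaving out an acute library leaves 1 in its group, so the calls over all genes in those fits are not given. For the RA time points no paired fit was made. Dlk1, and Meg3 and Plagl1 in their lowest libraries, are limited by depth.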
